A study of Mus musculus with 24 samples.

Results

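The genes described here are those of mitochondrial fatty acid oxidation and ketone use: the carnitine shuttle, the acyl-CoA dehydrogenases and the enzymes of the β-oxidation spiral, the electron transfer flavoproteins, and the enzymes that handle ketone bodies, acetate and acyl-CoA esters. They were chosen by name, as the rows of the expression table whose symbol is one of 35 listed. The table held 34 of the 35 (of 49452 genes in all). Acsf3, a mitochondrial malonyl-CoA synthetase, was not analysed here. RNA-Seq was performed on 24 libraries of primary (1°) stromal-vascular fraction (SVF) cells, a mixed fraction that holds adipocyte precursors beside other cells such as immune cells, and that is left once floating fat cells are taken off digested tissue. The cells came from interscapular brown adipose tissue (BAT) or perigonadal visceral white adipose tissue (vWAT) of male C57BL/6 mice 6 to 8 weeks old, and received either siH19, an siRNA against the long noncoding RNA H19, or siCtrl, a non-targeting siRNA. RNA was taken before induction (d0) or on day 3 of differentiation (d3), which gives 8 groups of 3 libraries: BAT siCtrl d0, BAT siH19 d0, BAT siCtrl d3, BAT siH19 d3 and the same 4 for vWAT.

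Both siRNAs were introduced by nucleofection, so the control cells underwent the same procedure. The induction medium held insulin and dexamethasone for both depots. By the study's methods, vWAT cells were also given rosiglitazone and the phosphodiesterase inhibitor IBMX, and BAT cells indomethacin and triiodothyronine, while the labels name IBMX for both depots. After induction vWAT cells stayed in rosiglitazone and BAT cells in triiodothyronine. The depots also differ in the prefix of their library names. Depot and library set therefore cannot be told apart in any comparison of BAT with vWAT. Where d3 libraries enter, medium cannot be told apart from them either. At d0, before induction, the study's methods give the same growth medium for both depots. One siRNA was used per target, BAT tissue was pooled where cells were few, and the labels do not say which replicates came from separate animals, so that p-values measure only the spread between these cultures, which may be technical.

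As background, fatty acids enter mitochondria as acylcarnitines, made by a CPT1 enzyme at the outer membrane, carried across the inner membrane by a translocase and turned back into acyl-CoA by CPT2. Each turn of β-oxidation then removes an acetyl unit through a dehydrogenase, a hydratase, a second dehydrogenase and a thiolase, with chain length deciding which enzyme acts, and the electrons of the opening step pass through the electron transfer flavoprotein to ubiquinone. Brown adipocytes burn fatty acids by this route to make heat, whereas white adipocytes mainly store them. Ketone bodies enter the same acetyl-CoA pool through succinyl-CoA:3-oxoacid CoA-transferase.

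Expression is given as FPKM, the fragments counted per kilobase of a transcript and relative to all those mapped in that library. Levels of genes and samples can be set beside each other on this scale. Comparisons between samples still depend on the scaling, as the results with scaling by the median of ratios show below. Fold changes and standard errors (SE) are those of limma on log2(FPKM + 1), which understates changes of genes with few FPKM. A gene was tested where at least 3 libraries of the fit reached an FPKM of 1, and was called where its p, adjusted by the Benjamini-Hochberg method over all genes tested, was under 0.05 and its change at least 1.3-fold. For an interaction, which tests whether one change differs from another, no minimum fold was set. Values after ± are SE for log2 changes and SD for FPKM, with n = 3 libraries per group.

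H19 itself was lowered in every knockdown group. H19 in BAT read 108, 160.4 and 122 FPKM in siCtrl and 2.82, 5.201 and 5.05 in siH19 cells at d0, then 99.7, 86.4 and 83.2 in siCtrl and 12.04, 12.1 and 16.9 in siH19 cells at d3. H19 in vWAT read 12.3, 11.3 and 11.6 and 1.23, 0.6302 and 1.76 at d0, then 8.67, 8.19 and 8.896 in siCtrl and 0.327, 0.291 and 0.966 in siH19 cells at d3. No knockdown library overlapped its control group, the remaining level in BAT was 3.35% of siCtrl at d0 and 15.3% at d3, and BAT siCtrl cells held more H19 than vWAT siCtrl cells at both days (log2 difference 3.24 ± 0.08, adjusted p = 4.8e-07, at d3). The FPKM of a library summed to between 710794 and 841456, from 12311 to 13125 genes were at 1 FPKM or more, and replicates correlated across genes with r of 0.960 to 0.969. Read counts are not in the table, so the depth is unknown. Relative depth, read from the steps between low values, was 0.832 to 0.983 in BAT and 1.02 to 1.18 in vWAT libraries.

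Of the 34 members, 29 have at least 1 promoter window in the RefSeq promoter table (build GRCm38.p6, 250 bases before to 50 after a gene start). The table does not list Acad9, Acaa2, Acat1, Decr1 or Acot13. Both strands were searched for 3 motifs: AGGTCANAGGTCA, the direct repeat bound by PPAR with RXR (up to 2 mismatches), TCAAGGTCA, bound by the estrogen-related receptors (no mismatch), and GCGCATGCGC, bound by NRF1 (up to 1 mismatch). The letters AGGTCA occur in both the repeat and the second motif. The repeat was found in 4 of the 30 member windows (13.3%) against 3.86% of all 32851 windows, the NRF1 motif in 5 (16.7%) against 6.33%, and the estrogen-related receptor motif in 0 against 0.423%. At a share of 0.423%, 30 windows are too few for a 0 to be informative. The motifs were searched with unlike numbers of mismatches, so their shares cannot be set against each other. The median share of G or C was 60.5% in the member windows and 52.7% in all windows. The part of this in the shares of matches was not tested. A match of letters is no proof of binding. The windows of 30 bases around 4 matches are shown as examples, from genes each among the 5 largest calls of a comparison. Other members had matches too. The windows run 5′ to 3′ on the strand of the gene with the matched bases in capitals, from Acadm (chr3:153944784-153944813, minus strand), Etfdh (chr3:79628876-79628905, minus strand), Slc25a20 (chr9:108662134-108662163, plus strand) and Echs1 (chr7:140116483-140116512, minus strand). The matches hold 1 mismatch in Acadm, 0 in Etfdh and 2 each in Slc25a20 and Echs1.
Acadm, NRF1 motif: cgggagcaggACGCATGCGCagagggcctt
Etfdh, NRF1 motif: tgcttctaggGCGCATGCGCacacgcgaga
Slc25a20, direct repeat: ctgaatgtAGGTGAAAGGTCGgcggagccg
Echs1, direct repeat: gcccgctcAGGTCACGGGTCCaccccttaa

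Hadha (chr5:30118304-30155162, minus strand) and Hadhb (chr5:30155248-30184593, plus strand), the genes of both subunits of the trifunctional protein, stand head to head on GRCm38. The 85 bases between them (chr5:30155163-30155247, plus strand, 69.4% G or C) are shown because the levels of both genes are compared further on.
Hadha and Hadhb, bases between: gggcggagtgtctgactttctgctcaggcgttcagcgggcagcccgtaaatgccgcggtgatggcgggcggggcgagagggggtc

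The oxidation genes rose steeply as the cells differentiated, and more so in brown cells. In BAT siCtrl cells 31 of the 32 members tested were higher at d3 than at d0 and 0 were lower, with a median log2 change of 3.05 against -0.10 over all genes tested, of which 29.9% were called higher and 35.3% lower. The exception was Cpt1a, with a log2 change of 0.12 ± 0.07, adjusted p = 0.18. The summed FPKM of the 34 members went from 1203, 1178 and 1194 at d0 to 10420.3, 11151 and 11153.5 at d3, so that their share of all FPKM went from 0.166% to 1.34%. In vWAT siCtrl cells 31 of 32 members rose and 1, again Cpt1a, fell, with a median log2 change of 1.60 against 0.01 over all genes, of which 26.3% were called higher and 23.9% lower. The vWAT sums went from 1439, 1396 and 1408 to 4989.7, 4914 and 4709.5. No d3 library overlapped a d0 library in the sum in either depot.

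**Figure D1:**
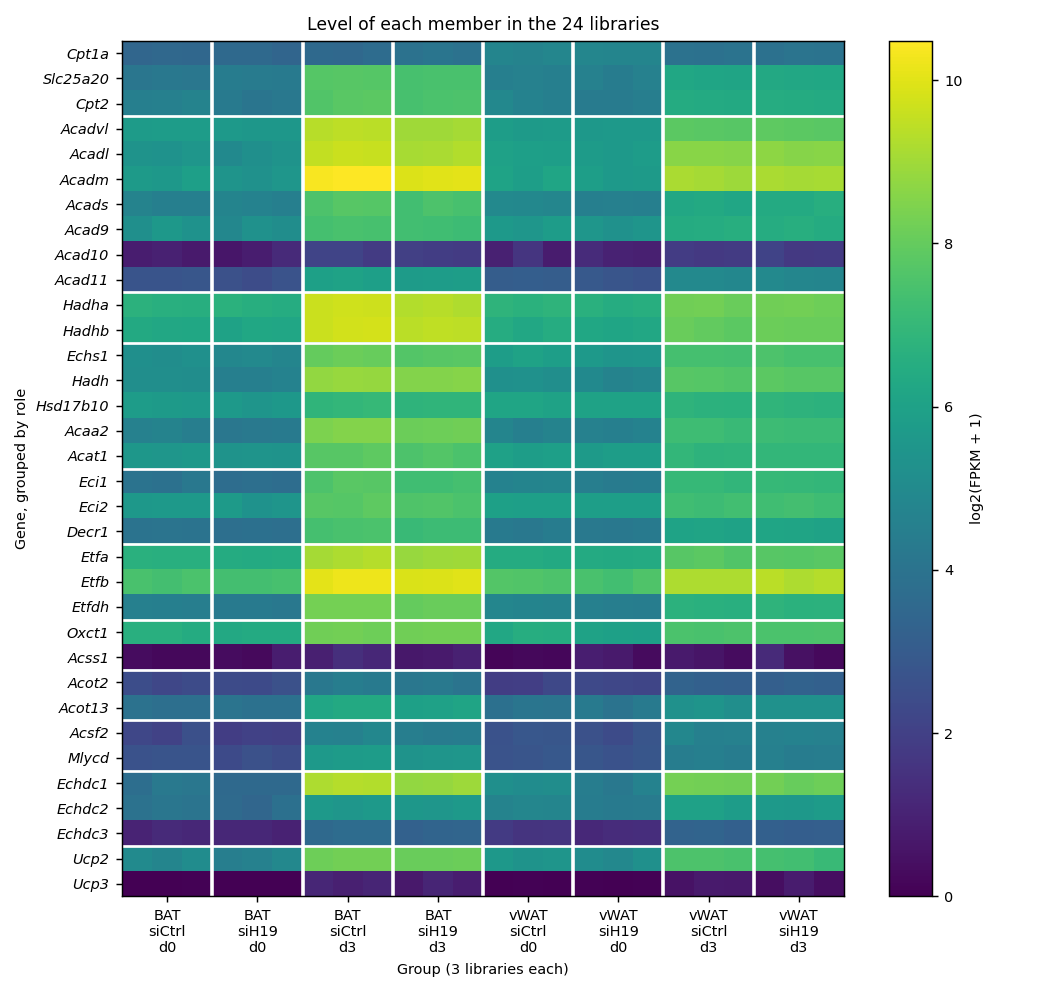
Heat map of log2(FPKM + 1) for the 34 members (rows, grouped by role with white lines) in the 24 libraries (columns, 3 per group). Both pairs of d3 blocks are brighter than the d0 blocks, the BAT d3 blocks most, Acad10, Acss1 and Ucp3 stay dark throughout, and Cpt1a does not brighten from d0 to d3.

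The largest rises in BAT were those of Echdc1, Acadm, Acadl, Acaa2 and Etfdh (log2 5.197, 4.73, 4.18, 3.92 and 3.75), and in vWAT those of Echdc1, Acadm, Acadl, Acaa2 and Hadh (3.104, 3.02, 2.67, 2.51 and 2.45). The rise itself was larger in BAT. The interaction of depot and day was higher in BAT for 31 of 32 members and lower for 0, with a median of 1.35, where 24.9% of all genes tested were called higher and 28.1% lower. Acad10 was the member without a call (log2 0.50 ± 0.26, adjusted p = 0.13). These 3 comparisons share their siCtrl libraries. Markers moved along with the members: the summed FPKM of 6 adipocyte markers went from 2986 to 3252 at d0 to 36917 to 38605 at d3 in BAT siCtrl cells and from 3965 to 3977 to 18842 to 19823 in vWAT, with 6 of 6 called higher in both. The 6 brown adipocyte markers summed to 4.02 to 6.73 at d0 and 784 to 925 at d3 in BAT, and to 2.101 to 4.16 and 149.8 to 167 in vWAT, where Ucp1, the uncoupling protein of brown fat, was listed at 0 in every library. Precursor and stromal markers went from 715 to 794 down to 277 to 316 in BAT, with 6 of 6 called lower, and from 548 to 605 up to 664 to 744 in vWAT, with 4 of 6 called lower and 1 higher. The part of these shifts in the members' changes was not tested, and in bulk RNA more cells of a type and more RNA per cell cannot be told apart.

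**Figure D2:**
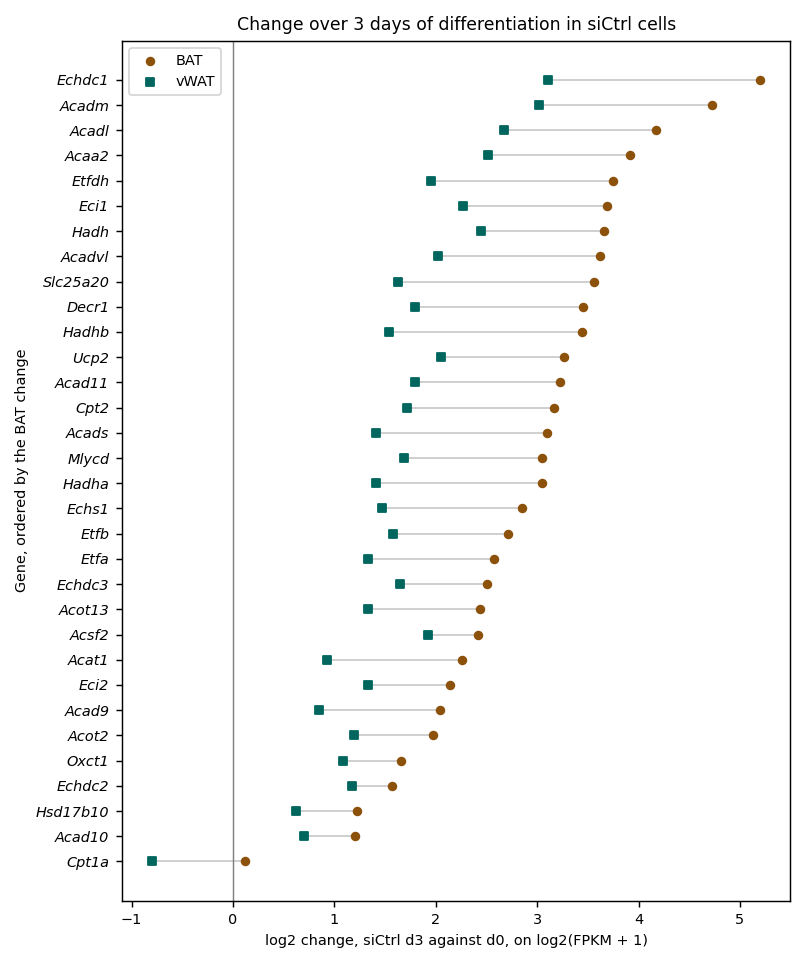
Log2 change from d0 to d3 in siCtrl cells (x axis, on log2(FPKM + 1)) for the 32 members tested, BAT as brown circles and vWAT as green squares joined by a grey line. Every member's BAT point lies to the right of its vWAT point, and Cpt1a, at the bottom, lies near 0 in BAT and below 0 in vWAT.

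Before induction the depots stood the other way round. At d0, 0 of 31 members were higher in BAT siCtrl than in vWAT siCtrl cells and 11 were lower, with a median log2 difference of -0.28 against -0.13 over all genes, of which 10.2% were called higher and 21.0% lower. Those most apart were Cpt1a (-1.25), Echdc1 (-1.08), Echdc2 (-0.73), Echs1 (-0.71) and Eci1 (-0.70). At d3, 26 of 32 were higher in BAT and 0 lower, with a median of 1.00 against -0.16 over all genes, of which 16.5% were called higher and 32.1% lower. Hadhb (1.78), Etfdh (1.61), Acadvl (1.58), Slc25a20 (1.54) and Hadha (1.496) differed most. The summed FPKM of the members in BAT was 0.843 times that in vWAT at d0 and 2.24 times at d3. Scaling by the median of ratios in place of FPKM alone moved the median of all genes by over 0.1, to -0.02 at d0 and -0.04 at d3. Under it the members' medians were -0.16 and 1.14, 1 member was higher and 8 were lower at d0, and the calls among all genes 1833 higher and 1956 lower at d0 (1343 and 2753 as deposited) and 2801 and 3347 at d3 (2162 and 4216).

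Cell type markers also differed between the depots. Skeletal muscle markers summed to 327 to 559 in BAT siCtrl cells at d0 and 214 to 255 at d3, but to 3.13 to 3.92 and 2.67 to 7.87 in vWAT, where Myog was at 0 in every library. Mesothelial markers ran the other way, at 5.14 to 5.92 in BAT and 114 to 132 in vWAT at d0, with Upk3b at 0 in BAT siCtrl cells at d0, and macrophage markers summed to 126 to 158 in BAT and 464 to 506 in vWAT at d3. Precursor and stromal markers summed to 277 to 316 in BAT and 664 to 744 in vWAT at d3, with 5 of 6 called lower in BAT. Muscle oxidizes fatty acids too, and the part of these cells in the depot differences was not tested.

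In brown cells at d3, knockdown of H19 went with lower expression across the oxidation genes. Of 33 members tested, 0 were called higher and 5 lower: Acadm, Acadl, Echdc1, Hadha and Eci1. Among all 12500 genes tested, 6.39% were called higher and 2.18% lower. The members' median log2 change was -0.27 against 0.05 over all genes, and 31 of 33 were below 0, the exceptions being Cpt1a and Oxct1. By adjusted p alone, without a minimum fold, 20 members were lower and 1, Cpt1a, higher, where 5.61% of all genes were lower and 10.6% higher. In 27 members every siH19 library lay below every siCtrl library, as in 13.1% of all genes tested, and in 1, Cpt1a, every siH19 library lay above, as in 24.2% of all genes. The summed FPKM of the members was 10420.3, 11151 and 11153.5 in siCtrl and 8541, 8877 and 9061 in siH19 cells, or 80.9% of the control mean, and the groups did not overlap. The number of calls rested on small differences around the 1.3-fold minimum. It was 3 without BAT siH19 d3 replicate 1, which took Echdc1 and Eci1 out. Cpt1a was called higher with a pseudocount of 0.1, without BAT siCtrl d3 replicate 3 or without BAT siH19 d3 replicate 3. With scaling by the median of ratios 7 members were called lower and the split among all genes was 627 higher and 410 lower, against 799 and 272.

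**Figure D3:**
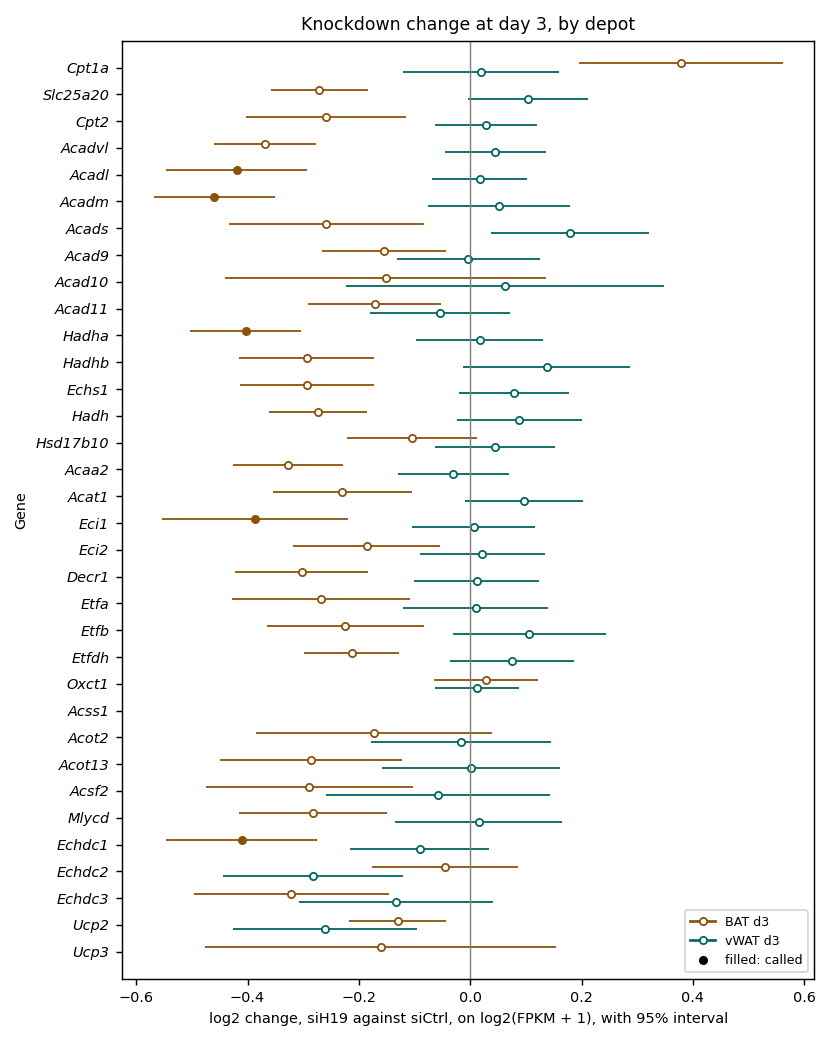
Log2 change of siH19 against siCtrl at d3 with its 95% interval for each member, BAT in brown and vWAT in green, filled where called. The BAT points lie to the left of 0 except those of Cpt1a and Oxct1, while the vWAT points lie around 0, and only Acadl, Acadm, Hadha, Eci1 and Echdc1 are filled, in BAT.

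White cells gave no such result. In vWAT at d3, limma called 0 of 32 members in either direction, 3 members had an unadjusted p under 0.05 (1315 of all genes did), and 0.00764% of all genes tested were called higher and 0.0229% lower. The members' median log2 change was 0.02 against -0.01 over all genes, 23 were above 0 and 9 below, and their 95% intervals ran from -0.44, for Echdc2, to 0.35, for Acad10. The sum of the members was 4989.7, 4914 and 4709.5 in siCtrl and 5115, 4870.3 and 4934 in siH19 cells, which overlap. The siRNA change differed between depots when tested itself. The interaction of depot and siRNA at d3 was called for 19 of 34 members, 18 of them lower in BAT and 1, Cpt1a, higher, with 7.02% of all genes called higher and 3.52% lower. The members' median interaction was -0.29 against 0.06 over all genes. With scaling by the median of ratios 21 members were lower and 0 higher, and the split among all genes turned from 966 higher and 485 lower to 635 and 759. Without BAT siCtrl d3 replicate 2 the count was 12.

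**Figure D4:**
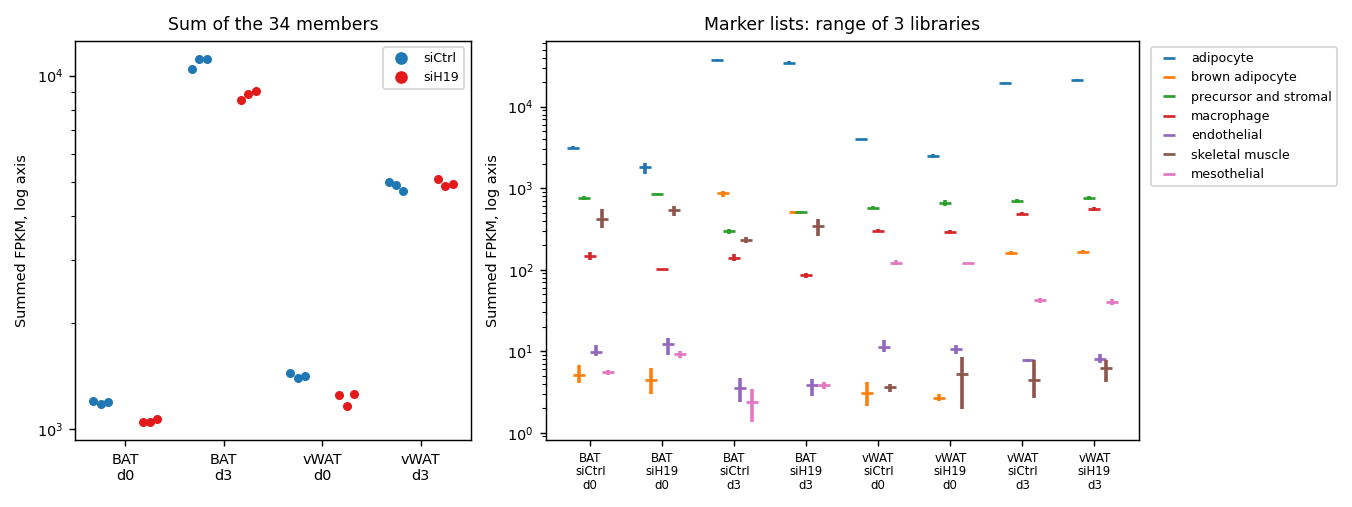
Left, summed FPKM of the 34 members in each library (log axis), siCtrl in blue and siH19 in red. The siH19 points lie below the siCtrl points in both depots at d0 and in BAT at d3, and among them in vWAT at d3. Right, summed FPKM of 7 marker lists (log axis), with a bar from the lowest to the highest of 3 libraries and a dash at the mean. In BAT at d3 the brown adipocyte and macrophage sums are lower with siH19 and the precursor and stromal sum is higher.

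Markers moved in the same BAT libraries. All 6 brown adipocyte markers (Ucp1, Cidea, Elovl3, Cox7a1, Cox8b and Ppargc1a) were called lower with siH19 at d3, from sums of 784 to 925 to 482 to 529. Of the 6 adipocyte markers 0 were called, though their sums did not overlap either, at 36917 to 38605 in siCtrl and 33653 to 35942 in siH19 cells. Precursor and stromal markers summed to 277 to 316 and 495 to 527, with 3 of 4 tested called higher (Dlk1, Ly6a and Pdgfra). Macrophage markers summed to 126 to 158 and 79.7 to 90.4, with Lyz2 and Adgre1 called lower, and skeletal muscle markers to 214 to 255 and 257 to 418, with 0 of 4 called. Endothelial markers summed to 2.35 to 4.65 and 2.79 to 4.55. The interaction of depot and siRNA was called lower in BAT for 5 of 6 adipocyte, 6 of 6 brown adipocyte and 3 of 5 tested macrophage markers, and higher for 3 of 6 precursor and stromal markers. In vWAT at d3 no marker of these lists was called, though adipocyte markers summed to 18842 to 19823 in siCtrl and 20833 to 21984 in siH19 cells, and macrophage markers to 464 to 506 and 522 to 588, both higher with siH19 without overlap. The part of these cells in the members' lower levels and in their depot interaction was not tested.

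At d0 the members were also mostly below the control, with few calls. In BAT cells 0 of 31 members were called higher and 1, Hadh, lower (log2 -0.59 ± 0.05, adjusted p = 0.014), the median was -0.18 against -0.03 over all genes, and 0.617% of all genes were called higher and 1.32% lower. Leaving out any one of the 3 BAT siCtrl d0 libraries raised the adjusted p of Hadh to between 0.063 and 0.069. In vWAT cells 0 of 32 were called higher and 3 lower, Echdc1 (-0.71 ± 0.11, adjusted p = 0.03), Oxct1 (-0.47 ± 0.07, adjusted p = 0.031) and Echdc2 (-0.40 ± 0.06, adjusted p = 0.028), the median was -0.19 against -0.03, and 0.329% of all genes were called higher and 1.2% lower. Leaving out 1 library in turn left 0 or 1 of these 3 calls, with 0 left without vWAT siCtrl d0 replicate 2 or 3 or without vWAT siH19 d0 replicate 1. Scaling by the median of ratios left 2, and moved the split among all genes from 43 higher and 157 lower to 61 and 128. In both depots 4 of the 6 adipocyte markers were called lower at d0, with sums of 2986 to 3252 in siCtrl and 1510 to 2025 in siH19 BAT cells, and of 3965 to 3977 and 2323 to 2625 in vWAT. Their part in the members' values was not tested.

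For most members the BAT change at d3 did not differ detectably from that at d0. The interaction of day and siRNA in BAT was called for 5 of 33 members, 3 lower at d3 than at d0 (Slc25a20, Hadha and Acot13) and 2 higher (Hadh and Cpt1a), with 7.79% of all genes called higher and 1.27% lower. The median was -0.08 against 0.09 over all genes. With scaling by the median of ratios, Cpt1a and Hadh lost their calls, 4 members were called, all lower, and the split among all genes went from 1058 higher and 172 lower to 524 and 334. Leaving out 1 library gave 2 to 5 calls, 2 of them without BAT siCtrl d0 replicate 2, BAT siH19 d0 replicate 1 or 2, BAT siCtrl d3 replicate 2 or BAT siH19 d3 replicate 1. This interaction and the one with depot share the BAT d3 libraries.

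Among the carnitine shuttle members, Cpt1a, a form of the entry enzyme, behaved unlike Slc25a20 and Cpt2. Cpt1b, an entry form that is not a member, was more abundant in BAT siCtrl cells at d3 (154 against 11.3 FPKM). It fell with siH19 there, as given further on. Cpt1a (chr19:3323301-3385732, plus strand) encodes the CPT1 form named for liver, which loads fatty acids onto carnitine. Cpt1a in BAT read 9.88, 10.8 and 10.3 FPKM in siCtrl and 10.8, 10.9 and 9.74 in siH19 cells at d0, then 11.1, 10.7 and 12.1 in siCtrl and 14.6, 16.04 and 14.3 in siH19 cells at d3. Cpt1a in vWAT read 26.3, 24.5 and 27.1 in siCtrl and 26.9, 26.6 and 26.04 in siH19 cells at d0, then 14.6, 14.1 and 14.9 in siCtrl and 14.02, 15.5 and 14.8 in siH19 cells at d3. It was the only member called lower from d0 to d3 in vWAT (log2 -0.79 ± 0.06, adjusted p = 3.7e-05), and vWAT cells before induction held more of it than BAT cells (-1.25 ± 0.06, adjusted p = 1.6e-05). With siH19 at BAT d3 each library lay above each siCtrl library (log2 0.38 ± 0.08, adjusted p = 0.021), a change just under the 1.3-fold minimum, whereas the vWAT d3 groups overlapped. Cpt1a was called higher at BAT d3 with a pseudocount of 0.1, without BAT siCtrl d3 replicate 3 or without BAT siH19 d3 replicate 3. Its interactions with depot (0.36 ± 0.09, adjusted p = 0.031) and with day in BAT (0.36 ± 0.10, adjusted p = 0.0495) both passed, but neither was called under median-of-ratios scaling. The former was lost when any one of 7 of the 12 libraries was left out (log2 0.31 to 0.36), the latter with any one of 11 of 12, all but BAT siCtrl d3 replicate 3.

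Slc25a20, the carnitine-acylcarnitine translocase, instead rose in both depots and lay lower with siH19 at BAT d3, as most members did. Slc25a20 in BAT read 16.5, 17.5 and 16.7 FPKM in siCtrl and 19.96, 19.6 and 18.4 in siH19 cells at d0, then 207, 216 and 207 in siCtrl and 170.4, 174 and 177 in siH19 cells at d3. Slc25a20 in vWAT read 22.4, 23.3 and 21.99 in siCtrl and 23.3, 19.99 and 23.6 in siH19 cells at d0, then 74.5, 71 and 69.5 in siCtrl and 79.9, 76.9 and 74.6 in siH19 cells at d3. At BAT d3 all siH19 libraries were below all siCtrl libraries (log2 -0.27 ± 0.04, adjusted p = 0.0058, under the minimum fold), and at BAT d0 all were above (0.18 ± 0.06, adjusted p = 0.15). At vWAT d3 they were above as well (0.10 ± 0.04, adjusted p = 0.51). The interactions with day (-0.45 ± 0.06, adjusted p = 0.0014) and with depot (-0.38 ± 0.05, adjusted p = 0.0027) both passed. Cpt2, which releases the acyl-CoA in the matrix, completes the shuttle. Cpt2 in BAT read 22.1, 22.98 and 24.5 FPKM in siCtrl and 19.1, 16.1 and 17.5 in siH19 cells at d0, then 200.2, 221 and 227 in siCtrl and 171, 183 and 186 in siH19 cells at d3. Cpt2 in vWAT read 29.02, 24.3 and 22 in siCtrl and 19.6, 19.6 and 21.4 in siH19 cells at d0, then 85.9, 85.04 and 81.6 in siCtrl and 87.7, 85.96 and 83.9 in siH19 cells at d3. Its siH19 libraries were below siCtrl at both BAT days without overlap (log2 -0.39 at d0 and -0.26 at d3, neither called), and its depot interaction was -0.29 ± 0.07, adjusted p = 0.031, a call lost without any one of 7 of the 12 libraries (adjusted p of 0.056 to 0.078).

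The 7 members of the acyl-CoA dehydrogenase family include the enzymes that open each turn of the spiral. Of these 7, 2 were called lower with siH19 at BAT d3 and all 7 rose from d0 to d3 in both depots. Acadm (chr3:153922357-153944632, minus strand), the medium-chain enzyme, was the most abundant member in BAT at d3, with 1401 ± 47.9 FPKM or 12.9% of the members' sum. Acadm in BAT read 50.8, 46.7 and 58.9 FPKM in siCtrl and 42.3, 38.7 and 44.1 in siH19 cells at d0, then 1346, 1426 and 1432 in siCtrl and 969.7, 1024 and 1063 in siH19 cells at d3. Acadm in vWAT read 67.5, 57.7 and 70.3 in siCtrl and 58.4, 47.9 and 50.8 in siH19 cells at d0, then 565, 543 and 493 in siCtrl and 562, 544 and 551 in siH19 cells at d3. Its mean rose 26.9-fold in BAT and 8.19-fold in vWAT, and with siH19 the BAT d3 libraries dropped clear of the control (log2 -0.46 ± 0.05, adjusted p = 0.0029) to 72.7% of its mean, while the vWAT d3 groups overlapped. The depot interaction, -0.51 ± 0.07, adjusted p = 0.0027, was the lowest of all members.

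Acadl (chr1:66830839-66863277, minus strand), the long-chain enzyme, gave the next largest knockdown change. Acadl in BAT read 40.99, 40.1 and 44.6 FPKM in siCtrl and 30.7, 36.5 and 41.1 in siH19 cells at d0, then 744, 798 and 778 in siCtrl and 548, 570.4 and 617 in siH19 cells at d3. Acadl in vWAT read 62.6, 59.99 and 57.9 in siCtrl and 52.3, 50.1 and 54.3 in siH19 cells at d0, then 394, 388 and 386 in siCtrl and 411, 382 and 389.7 in siH19 cells at d3. In BAT at d3 no siH19 library reached a siCtrl library (log2 -0.42 ± 0.05, adjusted p = 0.0052), in vWAT they overlapped, and the change differed between depots (-0.44 ± 0.06, adjusted p = 0.0031). Acadvl, the very-long-chain enzyme of the inner membrane, gave a smaller change. Acadvl in BAT read 52.8, 53.9 and 53.9 FPKM in siCtrl and 48.97, 45.3 and 45.5 in siH19 cells at d0, then 647, 691 and 671 in siCtrl and 512, 509.8 and 533 in siH19 cells at d3. Acadvl in vWAT read 56.9, 52.1 and 53.3 in siCtrl and 47.3, 49.2 and 49.6 in siH19 cells at d0, then 228, 223 and 217 in siCtrl and 238, 226 and 225 in siH19 cells at d3. Its log2 change at BAT d3, -0.37 ± 0.04, adjusted p = 0.0031, missed the minimum fold although the groups stood apart, and its depot interaction passed (-0.41 ± 0.05, adjusted p = 0.0019). Of the exon bases of Acadvl 42.9% overlap Dvl2 on the opposite strand, whose mean FPKM in BAT siCtrl cells at d3 was 4.18 against 669.9 of Acadvl.

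Acads, the short-chain enzyme, stood lower in BAT at d3 without reaching the threshold. Acads in BAT read 24.8, 22.3 and 22.3 FPKM in siCtrl and 25.7, 24.4 and 21.9 in siH19 cells at d0, then 189.6, 214 and 213 in siCtrl and 159, 186 and 170.1 in siH19 cells at d3. Acads in vWAT read 29.5, 28.7 and 27.1 in siCtrl and 22.3, 22.5 and 21.9 in siH19 cells at d0, then 77.04, 81.9 and 73.5 in siCtrl and 85.2, 84.7 and 93.7 in siH19 cells at d3. The BAT d3 groups did not overlap (log2 -0.26 ± 0.07, adjusted p = 0.058), the vWAT d3 siH19 libraries were all above siCtrl (0.18 ± 0.06, adjusted p = 0.42), and the depot interaction passed (-0.44 ± 0.10, adjusted p = 0.021), though not without BAT siCtrl d3 replicate 2 (adjusted p = 0.057) or vWAT siCtrl d3 replicate 3 (0.054). Acad9, a family member that also serves the assembly of respiratory complex I, was lower with siH19 at BAT d3 without a call. Acad9 in BAT read 36.2, 46.8 and 39.4 FPKM in siCtrl and 27.9, 38.6 and 34.3 in siH19 cells at d0, then 166, 176 and 170.2 in siCtrl and 159, 155 and 146 in siH19 cells at d3. Acad9 in vWAT read 50.5, 44.7 and 53.9 in siCtrl and 44.2, 38.4 and 42.7 in siH19 cells at d0, then 86.05, 88.8 and 95.03 in siCtrl and 89.01, 94.1 and 86.1 in siH19 cells at d3. Its siH19 libraries lay below siCtrl without overlap at BAT d3 (89.8% of the control mean) and at vWAT d0 (84.0%). Its BAT rise over 3 days was 4.19-fold, and no siRNA comparison or interaction with siRNA was called. Acad11 belongs to the same family. Acad11 in BAT read 5.62, 5.56 and 6.08 FPKM in siCtrl and 5.099, 4.49 and 5.39 in siH19 cells at d0, then 62.1, 64.03 and 59.8 in siCtrl and 52.6, 55.2 and 56.9 in siH19 cells at d3. Acad11 in vWAT read 7.54, 7.74 and 7.46 in siCtrl and 6.69, 5.81 and 5.27 in siH19 cells at d0, then 29.4, 29.3 and 27.9 in siCtrl and 29.3, 27.4 and 26.6 in siH19 cells at d3. Its libraries were lower with siH19 at BAT d3 without overlap (log2 -0.17 ± 0.05, adjusted p = 0.065), and the depot interaction was not called (-0.12 ± 0.07, adjusted p = 0.32). Acad10 was low throughout, at 0.558 to 3.49 FPKM, and passed the filter at d0 in vWAT only. Its rise was called in both depots, in vWAT at log2 0.70 ± 0.21, adjusted p = 0.023, and there the call was lost without replicate 1 or 3 of either day (adjusted p of 0.059 to 0.070).

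**Figure D5:**
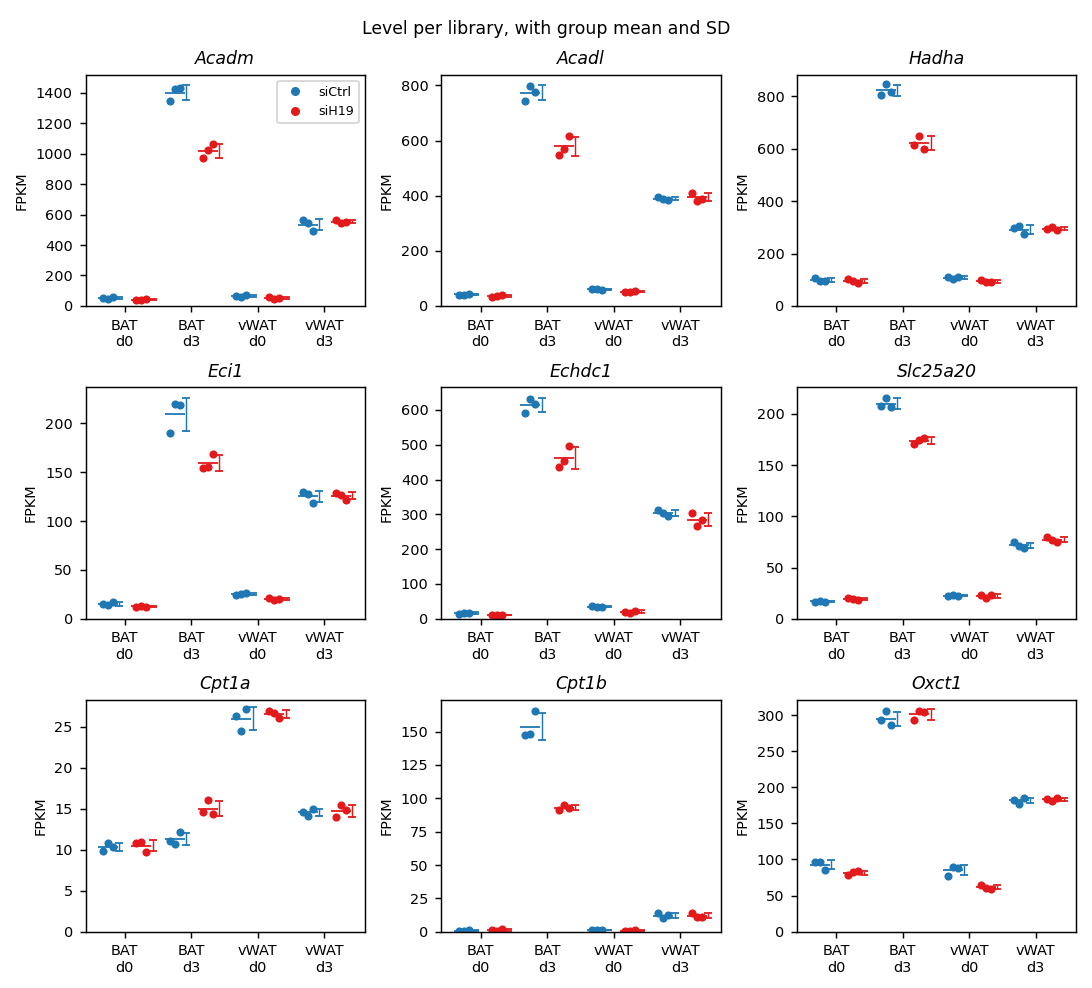
FPKM of 9 genes in each library by depot and day, siCtrl in blue and siH19 in red, with a line at the group mean and a bar of 1 SD. Acadm, Acadl, Hadha, Eci1, Echdc1, Slc25a20 and Cpt1b are lower with siH19 at BAT d3, Cpt1a is higher, and Oxct1 overlaps.

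The trifunctional protein, which carries out the last 3 steps for long chains, was among the members that differed most between depots. Hadha encodes its α subunit, with the hydratase and the long-chain hydroxyacyl dehydrogenase. Hadha in BAT read 106, 96.8 and 93.9 FPKM in siCtrl and 101, 94.9 and 88.6 in siH19 cells at d0, then 804, 845 and 817 in siCtrl and 616, 650.1 and 599 in siH19 cells at d3. Hadha in vWAT read 111, 104 and 111 in siCtrl and 101, 89.7 and 93.2 in siH19 cells at d0, then 296, 304 and 273 in siCtrl and 293, 301 and 289 in siH19 cells at d3. With siH19 the BAT d3 libraries all fell below siCtrl (log2 -0.40 ± 0.04, adjusted p = 0.0031) and those at d0 overlapped, a difference between days of -0.34 ± 0.08, adjusted p = 0.028, lost without any one of 8 of the 12 libraries. Without BAT siH19 d3 replicate 3 the change was -0.38 and under the minimum fold. Hadhb encodes the β subunit, the thiolase. Hadhb in BAT read 80.9, 76.9 and 74.1 FPKM in siCtrl and 65.03, 75.4 and 72.2 in siH19 cells at d0, then 792, 862 and 891 in siCtrl and 669, 704 and 700.5 in siH19 cells at d3. Hadhb in vWAT read 88.3, 76.6 and 88.8 in siCtrl and 75.03, 69.8 and 77.6 in siH19 cells at d0, then 269, 246 and 227 in siCtrl and 275, 268 and 271 in siH19 cells at d3. Hadhb lay below siCtrl at BAT d3 without overlap but under the minimum fold (log2 -0.29 ± 0.05, adjusted p = 0.013). The depot interactions of Hadha and Hadhb were -0.42 ± 0.06, adjusted p = 0.0033, and -0.43 ± 0.08, adjusted p = 0.011. Of the other members called for this interaction, Acadm (-0.51), Acads (-0.44) and Acadl (-0.44) had lower values. The BAT to vWAT ratios of mean FPKM in siCtrl cells at d3 were 2.83 for Hadha and 3.43 for Hadhb. Whether the 85 bases shown above act on both genes was not tested.

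The remaining enzymes of the matrix spiral held 5 members, all higher at d3 in both depots and 0 called with siH19 at d3. Echs1, the short-chain enoyl-CoA hydratase, started lower in BAT than in vWAT and ended higher. Echs1 in BAT read 35.99, 34.3 and 37.7 FPKM in siCtrl and 27.8, 29.2 and 26.5 in siH19 cells at d0, then 255, 278 and 262 in siCtrl and 206, 217 and 225 in siH19 cells at d3. Echs1 in vWAT read 56.4, 64.9 and 57.4 in siCtrl and 48.4, 42.9 and 45.2 in siH19 cells at d0, then 167, 168 and 164 in siCtrl and 185, 173 and 170.2 in siH19 cells at d3. Its siH19 libraries lay below siCtrl at BAT d0 (log2 -0.36 ± 0.06, adjusted p = 0.034), vWAT d0 (-0.38 ± 0.07, adjusted p = 0.058) and BAT d3 (-0.29 ± 0.05, adjusted p = 0.012), of which none was called, and lay above at vWAT d3 (0.08 ± 0.04, adjusted p = 0.59). The depot interaction at d3 was -0.37 ± 0.06, adjusted p = 0.0062.

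Hadh, the short-chain hydroxyacyl-CoA dehydrogenase, gave a larger siRNA change at d0 than at d3. Hadh in BAT read 35.6, 34.95 and 34.1 FPKM in siCtrl and 22.4, 21.97 and 24.2 in siH19 cells at d0, then 434, 460.4 and 457 in siCtrl and 366, 371 and 379.9 in siH19 cells at d3. Hadh in vWAT read 36.9, 39.1 and 35.7 in siCtrl and 30.3, 24.6 and 27 in siH19 cells at d0, then 217, 209 and 197 in siCtrl and 229, 216 and 217 in siH19 cells at d3. It fell at BAT d0 (log2 -0.59) by more than its BAT d3 value of -0.27 ± 0.04 (difference between days 0.32 ± 0.06, adjusted p = 0.0095), and the vWAT d0 siH19 libraries also lay clear below siCtrl without a call (-0.44 ± 0.08, adjusted p = 0.057). Its depot interaction at d3 was -0.36 ± 0.06, adjusted p = 0.0045. Hsd17b10, a dehydrogenase of isoleucine breakdown that is also part of mitochondrial RNase P, rose least of the spiral enzymes. Hsd17b10 in BAT read 54.8, 51.3 and 49.6 FPKM in siCtrl and 48.1, 43.9 and 47.7 in siH19 cells at d0, then 117, 123 and 129 in siCtrl and 110.4, 116 and 116 in siH19 cells at d3. Hsd17b10 in vWAT read 70.8, 71.2 and 64.1 in siCtrl and 64.2, 64.6 and 64.7 in siH19 cells at d0, then 111, 105 and 102 in siCtrl and 114, 108 and 107 in siH19 cells at d3. The rise was 2.37-fold in BAT and 1.55-fold in vWAT, and no siRNA comparison was called.

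Acaa2, the mitochondrial 3-ketoacyl-CoA thiolase that ends each turn, had one of the largest rises. Acaa2 in BAT read 23.2, 24.4 and 21.3 FPKM in siCtrl and 16.8, 17.6 and 18.9 in siH19 cells at d0, then 344, 370.1 and 369.8 in siCtrl and 281, 289 and 292 in siH19 cells at d3. Acaa2 in vWAT read 26.6, 22.3 and 24.98 in siCtrl and 23.6, 22.3 and 23.7 in siH19 cells at d0, then 149, 147 and 138 in siCtrl and 146, 139 and 141 in siH19 cells at d3. At BAT d3 the siH19 libraries were below siCtrl without overlap (log2 -0.33 ± 0.04, adjusted p = 0.0052, under the minimum fold), the vWAT d3 groups overlapped, and the depot interaction was -0.30 ± 0.06, adjusted p = 0.0095. Acat1, the acetoacetyl-CoA thiolase used in ketone and isoleucine breakdown, followed at lower size. Acat1 in BAT read 45.7, 44.5 and 46.8 FPKM in siCtrl and 40.7, 42.6 and 40.2 in siH19 cells at d0, then 217, 218 and 232 in siCtrl and 186, 201 and 182 in siH19 cells at d3. Acat1 in vWAT read 62.7, 56.9 and 58.9 in siCtrl and 50.9, 55.9 and 56.6 in siH19 cells at d0, then 120.5, 109 and 113 in siCtrl and 123, 123 and 120.4 in siH19 cells at d3. Its BAT d3 groups did not overlap (log2 -0.23 ± 0.05, adjusted p = 0.03), and its depot interaction passed (-0.33 ± 0.07, adjusted p = 0.014).

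Of the 3 auxiliary enzymes that let unsaturated fatty acids into the spiral, 1 was called lower with siH19 at BAT d3. Eci1 (chr17:24426683-24439316, plus strand), an enoyl-CoA isomerase, was that gene. Eci1 in BAT read 14.8, 13.9 and 17.2 FPKM in siCtrl and 12.3, 13.1 and 12.4 in siH19 cells at d0, then 189.7, 219.6 and 218 in siCtrl and 155, 155 and 169 in siH19 cells at d3. Eci1 in vWAT read 24.4, 25.2 and 26.3 in siCtrl and 21.2, 19.4 and 20.1 in siH19 cells at d0, then 129, 128 and 119 in siCtrl and 129, 127 and 122 in siH19 cells at d3. Its siCtrl replicate 1 at BAT d3 lay nearest to the siH19 libraries, which were all lower (log2 -0.39 ± 0.07, adjusted p = 0.015). The call was lost without BAT siCtrl d3 replicate 2 or 3 or BAT siH19 d3 replicate 1 or 2 (log2 -0.35 to -0.37, under the minimum fold, with an adjusted p of 0.049 to 0.057). The depot interaction was -0.39 ± 0.09, adjusted p = 0.019, with an adjusted p of 0.051 without BAT siCtrl d3 replicate 2.

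Eci2, an isomerase found in mitochondria and peroxisomes, changed less. Eci2 in BAT read 47.8, 49.8 and 49.4 FPKM in siCtrl and 50.96, 39.5 and 42.7 in siH19 cells at d0, then 216, 208 and 233 in siCtrl and 195, 198 and 183 in siH19 cells at d3. Eci2 in vWAT read 60.4, 59.2 and 60.04 in siCtrl and 57.4, 57.7 and 58.1 in siH19 cells at d0, then 152, 147 and 158 in siCtrl and 152, 162 and 149 in siH19 cells at d3. The BAT d3 siH19 libraries were below siCtrl (log2 -0.19 ± 0.06, adjusted p = 0.068) without a call, and its depot interaction did not pass (-0.21 ± 0.07, adjusted p = 0.11). Decr1, the 2,4-dienoyl-CoA reductase, rose 11.6-fold in BAT and 3.602-fold in vWAT. Decr1 in BAT read 15.1, 15.2 and 14.9 FPKM in siCtrl and 13.2, 13.5 and 13.2 in siH19 cells at d0, then 167, 177 and 182 in siCtrl and 135, 145 and 145 in siH19 cells at d3. Decr1 in vWAT read 18.3, 17.5 and 19.97 in siCtrl and 17.7, 17.3 and 18.7 in siH19 cells at d0, then 67.2, 68.6 and 65.1 in siCtrl and 70.3, 67.96 and 64.3 in siH19 cells at d3. All its BAT d3 siH19 libraries were below siCtrl (log2 -0.30 ± 0.05, adjusted p = 0.011, under the minimum fold), the vWAT groups overlapped, and the interaction with depot was -0.31 ± 0.07, adjusted p = 0.016.

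The electron transfer flavoprotein takes electrons from the acyl-CoA dehydrogenases of β-oxidation. The genes of its subunits, Etfa and Etfb, and Etfdh, the enzyme it passes them to, rose in both depots with 0 calls for siH19 at d3. Etfa, the α subunit, was the member with a higher BAT than vWAT level at d0 by adjusted p alone (log2 0.20 ± 0.04, adjusted p = 0.01). Etfa in BAT read 99.4, 96.7 and 96.3 FPKM in siCtrl and 87.2, 84.1 and 85.6 in siH19 cells at d0, then 542, 585 and 636 in siCtrl and 463, 488 and 511 in siH19 cells at d3. Etfa in vWAT read 87.4, 86.9 and 80.9 in siCtrl and 85.01, 80.99 and 83.01 in siH19 cells at d0, then 216, 228 and 201 in siCtrl and 214, 211 and 224 in siH19 cells at d3. At BAT d3 the siH19 libraries lay below siCtrl (log2 -0.27 ± 0.07, adjusted p = 0.041), and the depot interaction did not pass (-0.28 ± 0.09, adjusted p = 0.085). Etfb, the β subunit, had the highest level of all members in every d0 group and in vWAT at d3. Etfb in BAT read 177, 164 and 179.6 FPKM in siCtrl and 163, 165 and 171 in siH19 cells at d0, then 1059, 1193 and 1190.5 in siCtrl and 948, 964 and 1031 in siH19 cells at d3. Etfb in vWAT read 201, 198 and 187 in siCtrl and 178, 156 and 191 in siH19 cells at d0, then 579, 591 and 584 in siCtrl and 671, 577 and 644 in siH19 cells at d3. Its BAT d3 groups did not overlap (log2 -0.22 ± 0.06, adjusted p = 0.047) and its depot interaction was -0.33 ± 0.09, adjusted p = 0.038, a call lost without any one of 9 of the 12 libraries (adjusted p of 0.065 to 0.093). Of its exon bases 58.2% overlap Gm45233 and a microRNA on the same strand, whose reads its level may hold.

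Etfdh, which hands the electrons on to ubiquinone, rose 14.03-fold in BAT and 3.97-fold in vWAT. Etfdh in BAT read 22.98, 22.04 and 21.4 FPKM in siCtrl and 18.5, 19.1 and 17.3 in siH19 cells at d0, then 309, 313 and 309.8 in siCtrl and 258, 271 and 274 in siH19 cells at d3. Etfdh in vWAT read 26.7, 25.2 and 24.4 in siCtrl and 22.6, 21.3 and 20.7 in siH19 cells at d0, then 105, 101 and 97.2 in siCtrl and 111, 103 and 106 in siH19 cells at d3. It stood 3.07 times higher in BAT than in vWAT at d3 (log2 1.61 ± 0.04, adjusted p = 4.8e-07). With siH19 its BAT d3 libraries were all lower (log2 -0.21 ± 0.04, adjusted p = 0.011, under the minimum fold), and the depot interaction was -0.29 ± 0.06, adjusted p = 0.01.

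Ketone and acetate use had 2 members in the table, and only Oxct1 was tested at BAT d3. Oxct1, the CoA-transferase that commits ketone bodies to oxidation, had 295 ± 9.83 FPKM in BAT siCtrl cells at d3. Oxct1 in BAT read 95.9, 97.2 and 85.96 FPKM in siCtrl and 78.4, 82.9 and 83.9 in siH19 cells at d0, then 293, 306 and 287 in siCtrl and 293, 306 and 304 in siH19 cells at d3. Oxct1 in vWAT read 77.5, 90.3 and 88.9 in siCtrl and 64.8, 60.3 and 59.2 in siH19 cells at d0, then 183, 177 and 185 in siCtrl and 184, 181 and 185 in siH19 cells at d3. At BAT d3 the groups overlapped fully, with a log2 change of 0.03 and a 95% interval of -0.07 to 0.12, which does not reach the changes of the 5 members called there. The depot interaction was 0.02 ± 0.05, adjusted p = 0.87. Oxct1 did fall with siH19 in vWAT cells at d0 (log2 -0.47), where no library overlapped, a call lost without the filter on low FPKM (adjusted p = 0.087) and without any one of 5 of the 6 libraries, all but vWAT siCtrl d0 replicate 1 (0.065 to 0.12). Acss1, the mitochondrial acetyl-CoA synthetase for acetate, was at 0.097 to 1.65 FPKM, below the filter in all comparisons but the interaction of depot and siRNA, which was -0.45 ± 0.34, adjusted p = 0.45.

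Thioesterases and the handlers of acyl-CoA and malonyl-CoA had 4 members in the table, all higher at d3 and 0 called with siH19. Acot2, a mitochondrial long-chain thioesterase with a near-identical neighbour, Acot1, with which reads may be shared, was among the less abundant members. Acot2 in BAT read 4.52, 3.65 and 4.26 FPKM in siCtrl and 4.19, 4.06 and 5.07 in siH19 cells at d0, then 17.4, 21.03 and 19 in siCtrl and 16.96, 18 and 15.6 in siH19 cells at d3. Acot2 in vWAT read 2.79, 2.901 and 3.79 in siCtrl and 3.98, 3.74 and 3.62 in siH19 cells at d0, then 9.04, 8.27 and 8.13 in siCtrl and 8.04, 8.701 and 8.37 in siH19 cells at d3. Its siRNA groups overlapped at both BAT days. Acot13, a thioesterase bound to mitochondria, was below siCtrl at BAT d3. Acot13 in BAT read 14.4, 13.3 and 13.1 FPKM in siCtrl and 15.3, 14.2 and 13.9 in siH19 cells at d0, then 72.2, 81.5 and 80.7 in siCtrl and 60.9, 62.3 and 68.5 in siH19 cells at d3. Acot13 in vWAT read 13.7, 15.6 and 15.3 in siCtrl and 18.5, 14.8 and 19.1 in siH19 cells at d0, then 38.7, 42.4 and 35.6 in siCtrl and 38.6, 39.1 and 38.8 in siH19 cells at d3. That value (log2 -0.29 ± 0.07, adjusted p = 0.036) differed from the one at d0 (0.08), by -0.37 ± 0.09, adjusted p = 0.035, a call lost without any one of 8 of the 12 libraries (adjusted p of 0.058 to 0.088).

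Acsf2, a medium-chain acyl-CoA synthetase, gave no detectable difference between depots at d3 (log2 difference 0.02 ± 0.10, adjusted p = 0.88, 95% interval -0.22 to 0.26). Acsf2 in BAT read 3.69, 3.23 and 4.82 FPKM in siCtrl and 2.69, 3.07 and 2.92 in siH19 cells at d0, then 23.9, 23.6 and 27.8 in siCtrl and 21.2, 19.6 and 20.1 in siH19 cells at d3. Acsf2 in vWAT read 5.28, 6.18 and 5.93 in siCtrl and 5.07, 4.28 and 5.87 in siH19 cells at d0, then 28.2, 22.7 and 23.5 in siCtrl and 23.5, 24.1 and 23.4 in siH19 cells at d3. It was called lower in BAT at d0 (log2 -0.48 ± 0.13, adjusted p = 0.025), though not with median-of-ratios scaling (-0.37) or without BAT siCtrl d0 replicate 1 or 2 or vWAT siCtrl d0 replicate 2 or 3. With siH19 its BAT d3 libraries lay below siCtrl without overlap and without a call (-0.29 ± 0.08, adjusted p = 0.0505). Mlycd, which decarboxylates malonyl-CoA, the inhibitor of CPT1, rose 9.599-fold in BAT. Mlycd in BAT read 5.29, 5.56 and 5.598 FPKM in siCtrl and 4.12, 4.99 and 4.35 in siH19 cells at d0, then 49.8, 53.6 and 54.5 in siCtrl and 41.4, 43.2 and 44.8 in siH19 cells at d3. Mlycd in vWAT read 5.34, 5.82 and 6.38 in siCtrl and 5.95, 5.21 and 5.93 in siH19 cells at d0, then 20.8, 21.8 and 20.2 in siCtrl and 22.8, 20.3 and 20.6 in siH19 cells at d3. Its BAT d3 siH19 libraries were all below siCtrl (log2 -0.28 ± 0.06, adjusted p = 0.019, under the minimum fold), and the depot interaction was -0.30 ± 0.08, adjusted p = 0.042, lost without any one of 9 of the 12 libraries.

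Of the Echdc genes, Echdc1 (chr10:29313166-29347469, plus strand), an ethylmalonyl-CoA decarboxylase that clears side products of acyl-CoA metabolism, had the steepest rise of the members tested over days, 38.6-fold in BAT and 8.82-fold in vWAT. Echdc1 in BAT read 12.8, 17.9 and 16.96 FPKM in siCtrl and 11.1, 10.9 and 10.8 in siH19 cells at d0, then 591, 631 and 618 in siCtrl and 435, 453 and 497 in siH19 cells at d3. Echdc1 in vWAT read 35.9, 33.2 and 34.02 in siCtrl and 20.98, 17.5 and 23.8 in siH19 cells at d0, then 311, 304 and 295 in siCtrl and 303, 267 and 285 in siH19 cells at d3. With siH19 it was called lower at BAT d3 (log2 -0.41 ± 0.06, adjusted p = 0.0062) and at vWAT d0, and no library overlapped in either. The vWAT d0 call was lost without any one vWAT siCtrl d0 library or without vWAT siH19 d0 replicate 1 (adjusted p of 0.089 to 0.11). Without BAT siH19 d3 replicate 1 the BAT d3 change was -0.37 and under the minimum fold. The depot interaction was -0.32 ± 0.08, adjusted p = 0.032, a call lost without any one of 8 of the 12 libraries. Of its exon bases 86.4% overlap Rnf146 and an antisense RNA on the opposite strand, and Rnf146 read 178, 187 and 185 in BAT siCtrl and 139, 144 and 150.3 in BAT siH19 cells at d3. Whether strand was used in counting is not given, so reads of the 2 genes may be mixed.

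Echdc2 and Echdc3 belong to the same hydratase-like family. Echdc2 in BAT read 14.4, 16.5 and 15.3 FPKM in siCtrl and 11.2, 10.1 and 13.5 in siH19 cells at d0, then 49.6, 45.2 and 48.4 in siCtrl and 45.7, 44.8 and 48.1 in siH19 cells at d3. Echdc2 in vWAT read 24.5, 27.4 and 26.5 in siCtrl and 19.99, 19.3 and 19.3 in siH19 cells at d0, then 62.9, 62.5 and 55.3 in siCtrl and 48.6, 46.96 and 52.4 in siH19 cells at d3. Echdc2 was one of the 2 members with less FPKM in BAT than in vWAT at d3, beside Cpt1a (log2 -0.33 ± 0.07, adjusted p = 0.0043), and its siRNA groups at BAT d3 overlapped. It was called lower with siH19 in vWAT at d0 only, and that call was lost whichever of the 6 libraries was left out (adjusted p of 0.056 to 0.12). At vWAT d3 its siH19 libraries also lay below siCtrl without overlap, at 81.9% of the control mean, without a call. Echdc3 in BAT read 1.06, 1.39 and 1.27 FPKM in siCtrl and 1.22, 1.23 and 1.02 in siH19 cells at d0, then 11.03, 12.01 and 12.02 in siCtrl and 8.59, 9.28 and 9.597 in siH19 cells at d3. Echdc3 in vWAT read 2.46, 2.004 and 2.05 in siCtrl and 1.302, 1.55 and 1.58 in siH19 cells at d0, then 9.18, 9.405 and 8.23 in siCtrl and 8.37, 7.68 and 8.104 in siH19 cells at d3. Echdc3 was lower with siH19 at BAT d3 without overlap (log2 -0.32 ± 0.07, adjusted p = 0.031, under the minimum fold), and its depot interaction did not pass (-0.19 ± 0.09, adjusted p = 0.25).

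Ucp2 and Ucp3 are mitochondrial carriers related to Ucp1 and lie next to each other on chromosome 7. Ucp2 in BAT read 31.3, 26.4 and 33.1 FPKM in siCtrl and 21.2, 23.1 and 28.5 in siH19 cells at d0, then 288, 303 and 305 in siCtrl and 269.9, 272 and 276 in siH19 cells at d3. Ucp2 in vWAT read 46.99, 40.7 and 43.7 in siCtrl and 32.97, 28.6 and 37.8 in siH19 cells at d0, then 189, 185 and 179 in siCtrl and 165, 159 and 138 in siH19 cells at d3. Ucp2 rose 9.86-fold in BAT and 4.21-fold in vWAT. It was lower with siH19 at d3 in both depots without overlap (log2 -0.13 ± 0.04, adjusted p = 0.057 in BAT, and -0.26 ± 0.07, adjusted p = 0.36 in vWAT), neither called, and its depot interaction was 0.13 ± 0.08, adjusted p = 0.35. Ucp3 was at 0 to 0.0453 FPKM at d0 and at 0.294 to 1.17 at d3, and passed the filter only in the fits with BAT d3 libraries of both siRNAs, where nothing was called.

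Other genes of the pathway came from a list of 23: fatty acid activation and carnitine, ketone body formation and transport, and regulators. With siH19 at BAT d3, 2 of 21 tested were called higher and 5 lower, where 6.39% of all genes were called higher and 2.18% lower. In vWAT at d3 0 of 22 were called, where the shares of all genes were 0.00764% and 0.0229%. Cpt1b, the CPT1 form named for muscle, contrasted with Cpt1a. Cpt1b in BAT read 0.5301, 0.383 and 1.47 FPKM in siCtrl and 1.19, 0.322 and 1.86 in siH19 cells at d0, then 148, 148 and 165 in siCtrl and 91.3, 94.7 and 93 in siH19 cells at d3. Cpt1b in vWAT read 1.18, 1.53 and 1.43 in siCtrl and 0.723, 0.466 and 1.37 in siH19 cells at d0, then 13.6, 9.92 and 12.3 in siCtrl and 14.1, 10.8 and 10.7 in siH19 cells at d3. Its BAT d3 level in siCtrl cells was 154 ± 10.04 FPKM where that of Cpt1a was 11.3 ± 0.748, and with siH19 it fell (log2 -0.72 ± 0.05, adjusted p = 0.0018), with no overlap. Crat, the carnitine acetyltransferase, also fell (-0.51 ± 0.11, adjusted p = 0.025), from 327, 378 and 369.9 to 248, 220.3 and 292. Among regulators, Ppara, the receptor that drives many oxidation genes, went from 16.7, 16.1 and 23.7 to 9.71, 10.3 and 8.08 (log2 -0.92 ± 0.16, adjusted p = 0.013).

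Ppargc1a, a coactivator of mitochondrial genes that is also on the brown marker list, read 13.1, 15.8 and 11.6 in siCtrl and 6.59, 8.37 and 6.88 in siH19 cells (log2 -0.81 ± 0.13, adjusted p = 0.011). Acacb makes the malonyl-CoA that inhibits CPT1, and went from 27.7, 27.96 and 30.4 to 14.2, 13.7 and 14.1 (log2 -0.98 ± 0.06, adjusted p = 0.0013), opposite to Cpt1a. The 2 called higher were Cpt1c, a CPT1 relative of neurons, at 4.66, 5.21 and 5.45 and 7.65, 6.702 and 7.58 (log2 0.44 ± 0.09, adjusted p = 0.021), and Bdh2, a dehydrogenase named for hydroxybutyrate, at 3.44, 2.87 and 3.33 and 5.26, 6.62 and 5.87 (log2 0.71 ± 0.11, adjusted p = 0.0081). In all 7 the groups stood apart. From d0 to d3 14 of 22 of the list were called higher and 5 lower in BAT (29.9% and 35.3% of all genes), and 13 and 4 of 23 in vWAT (26.3% and 23.9%).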

How the data were processed

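Replicate numbers, groups and days were taken from the sample labels, in which siKO marks the control. Per the labels, poly-A RNA was made into libraries with a directional kit, and the submitters' processing notes name TopHat2 2.0.10, Cufflinks 2.2.1, DESeq2 and build GRCm38.p5. The authors deposited 1 table of values per gene and library that names no unit. The deposited values were read as FPKM, the unit in which the study plots them. Whether strand was used in counting is not given in the sources used here. Members were matched by the symbol column (20695 rows have one), H19 by its gene ID, and 0 value columns were left out.

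From these values, limma 3.58.1 under R 4.3.3 fitted linear models to log2(FPKM + 1), with moderated variances and an intensity trend, on the libraries each comparison needs, over all genes with at least 1 FPKM in 3 or more of them. Scripts were tested on simulated data. The members, the pathway and marker lists and the motifs were chosen with earlier results of these data known. Genes given in every library were H19, members called in BAT d3 siH19 against siCtrl or in an interaction, and the 5 largest calls of each comparison. Other list genes were named where called at BAT d3 or where a marker was at 0. Rnf146 and Dvl2 were named after their values were seen. Alternatives were a pseudocount of 0.1, no filter, no minimum fold (1.3 for interactions), median-of-ratios scaling, 1 fit of all 24 libraries, a replicate block, and leaving out each library. Exon overlaps used GENCODE M21 on GRCm38, in which 29 of 34 members have the table's coordinates. Figures used matplotlib 3.10.9. The paper and the labels differ on read length and layout, and no depth, interval or detection limit based on counts can be given.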

Additional observations from a re-analysis of the deposited data

Results flagged for a closer look

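The members listed here gave different changes in 2 settings of the study, by limma's test of the interaction itself over all genes tested. Several of the siRNA interaction calls were lost under alternatives or without 1 library, as given with each member. With a minimum of 1.3-fold, 7 calls were left for depot and siRNA and 1 for day and siRNA in BAT. All values are log2 differences between changes on log2(FPKM + 1).

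The change with siH19 at d3 differed between BAT and vWAT for 19 members, given as the BAT change minus the vWAT change: Acadm -0.51, Acads -0.44, Acadl -0.44, Hadhb -0.43, Hadha -0.42, Acadvl -0.41, Eci1 -0.39, Slc25a20 -0.38, Echs1 -0.37, Hadh -0.36, Etfb -0.33, Acat1 -0.33, Echdc1 -0.32, Decr1 -0.31, Mlycd -0.30, Acaa2 -0.30, Etfdh -0.29, Cpt2 -0.29 and Cpt1a 0.36. The siH19 change in BAT differed between d3 and d0 for 5 members, given as d3 minus d0: Slc25a20 -0.45, Acot13 -0.37, Hadha -0.34, Hadh 0.32 and Cpt1a 0.36.

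The change from d0 to d3 in siCtrl cells was larger in BAT than in vWAT for 31 members: Echdc1 2.09, Slc25a20 1.93, Hadhb 1.902, Etfdh 1.802, Acadm 1.71, Acads 1.68, Decr1 1.66, Hadha 1.63, Acadvl 1.599, Acadl 1.501, Cpt2 1.45, Eci1 1.43, Acad11 1.42, Acaa2 1.404, Echs1 1.38, Mlycd 1.36, Acat1 1.33, Etfa 1.25, Ucp2 1.21, Hadh 1.21, Acad9 1.2, Etfb 1.14, Acot13 1.11, Cpt1a 0.91, Echdc3 0.85, Eci2 0.80, Acot2 0.77, Hsd17b10 0.60, Oxct1 0.58, Acsf2 0.50 and Echdc2 0.40. Depot goes together with medium and library set, so the depot differences cannot be told apart from these.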

How the results depend on the processing

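Among the members named as called, no alternative turned a direction, and 164 of the single-member values under an alternative lost their call. The counts of members called changed by over 1.5 times as follows. With siH19 at BAT d3 (5 called) the count was 21 without a minimum fold, and 3 to 6 when 1 library was left out. With siH19 at BAT d0 (1 called) it was 3 without a minimum fold, 4 with all 24 libraries in 1 fit, 0 with a replicate block and 0 to 1 when 1 library was left out. With siH19 at vWAT d0 (3 called) it was 0 without a filter, where more genes were tested, 6 with all 24 libraries in 1 fit, 0 with a replicate block and 0 to 1 when 1 library was left out. For BAT against vWAT at d0 (11 called) it was 20 without a minimum fold. For the interaction of depot and siRNA (19 called) it was 7 with a minimum of 1.3-fold and 12 to 19 when 1 library was left out. For that of day and siRNA in BAT (5 called) it was 2 without a filter, 1 with a minimum of 1.3-fold, 3 with a replicate block and 2 to 5 when 1 library was left out. The cause was not tested, apart from the thresholds themselves. The 0 calls at vWAT d3 stayed 0 under every alternative listed, and the d0 to d3 counts and the interaction of depot and day stayed within 1.5 times.

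Replicate numbers did not pair the libraries: deviations of libraries with the same number correlated at -0.11 to 0.06. The fit with a replicate block therefore tests a shared number only, and it gave 14 calls for the interaction of depot and siRNA. Depth is unknown, so low members such as Acss1, Ucp3 and Acad10 cannot be judged for counting error, and with 3 libraries per group small changes may be missed.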
